A study of Mus musculus with 6 samples.

Results

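The genes described here are 36 genes of DNA replication and mitosis, given as a list of gene symbols and matched to the gene identifiers of the deposited expression tables. All 36 were found among the 21674 genes of those tables, and all 36 were among the 12728 genes with enough counts to be tested. The list holds 18 genes that act in S phase, when DNA is copied, and 18 that act in mitosis, or M phase, when the copied chromosomes are parted. Bulk RNA sequencing libraries came from a mouse aortic cell line labelled endothelial, and the study asked what loss of the splicing repressor Ptbp1 does before and after the cytokine TNF. All groups share the line's label Fn AB+/- and its immortalisation with TetOn-SV40, and all cells were expanded with doxycycline and then plated without it in medium with serum. WT is that line, KO is 1 single-cell clone of it in which Ptbp1 was deleted by CRISPR, and Rescue is that clone with a human PTBP1 cDNA. Untreated cells and cells treated with 30 ng/mL TNF gave 1 library each per genotype, which makes 6 groups of 1 library and no replicates.

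For 4 of the 6 libraries the deposited files were named for another group than the label. The pair of libraries with WT file names carries the labels WT and, where the name has TNF, KO. The pair with KO file names carries the labels Rescue and, where the name has TNF, WT_TNF. For the pair with Rescue file names the labels are KO_TNF and, where the name has TNF, Rescue_TNF. Groups below are those of the file names, reading the word basal as WT, and results with the labels' groups are given beside the tests and ratios. The pairs are called WT, KO and Rescue after their file names, and of 2 values the one without TNF comes first. Library totals ranged from 19582761 to 21609245 expected counts. CPM is the count scaled to library size with edgeR's TMM factors, and TPM is the deposited value, which is also scaled to transcript length.

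Cells copy their DNA once per division. Origins are first licensed with the MCM helicase by Cdc6 and Cdt1, then fired under cyclin E and A kinases, and copied by polymerases that ride on the Pcna clamp. Entry into mitosis needs Cdk1 with cyclin B, and the spindle checkpoint holds chromosome separation until kinetochores are attached, after which Cdc20 with the anaphase-promoting complex destroys cyclin B. Messenger RNAs of the first group are known to rise with E2F factors near the start of S phase, and those of the second later, under the DREAM and MuvB complexes with B-Myb and FoxM1, through CHR and CCAAT elements of their promoters. SV40 large T antigen is known to bind the retinoblastoma family and p53. Its level was not analysed here.

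The promoters of the list carried letters of these elements unequally between the S-phase and the M-phase genes. RefSeq promoter windows of GRCm38.p6 matched 30 of 36 genes by symbol, 15 in each class, and the 250 bases before the gene start were searched on both strands. An E2F core (TTCCCGC or TTCGCGC or TTGCCGC or TTGGCGC) was in 8 of 15 S-phase windows (53.3%) and 3 of 15 M-phase windows (20%), against 7.97% of all 27025 windows. A CHR, TTTGAA or TTCGAA, was in 2 S-phase windows (13.3%) and 7 M-phase windows (46.7%), against 17.4% of all. CCAAT was in 10 S-phase windows (66.7%) and 14 M-phase windows (93.3%), against 34.5% of all, and at least 2 copies were in 5 (33.3%) and 10 (66.7%), against 10.4%. All 7 M-phase windows with a CHR also held CCAAT, as did the 2 S-phase windows with one, a pair found in 6.21% of all windows. Wider lists of both processes, described below, were also searched. An E2F core was in 26.3% of replication and 8.89% of mitosis windows there, and a CHR in 18.4% and 33.3%. The TTGGCGC form read on the other strand ends in CCAA and can share letters with a CCAAT box, and windows were not matched for base composition. Below are the 120 bases before the start of 7 of these genes, 5′ to 3′ on the gene's strand, chosen to show each element and to lie outside every GENCODE exon, with E2F core, CHR and CCAAT matches of either strand in capitals.
Mcm5, chr8:75109389-75109508, plus strand: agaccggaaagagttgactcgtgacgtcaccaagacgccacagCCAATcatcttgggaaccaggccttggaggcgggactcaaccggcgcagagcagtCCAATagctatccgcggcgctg
Mcm6, chr1:128359706-128359825, minus strand: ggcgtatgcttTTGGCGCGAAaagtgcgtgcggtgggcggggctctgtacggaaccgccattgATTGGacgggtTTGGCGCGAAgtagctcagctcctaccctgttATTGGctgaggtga
Rrm1, chr7:102441575-102441694, plus strand: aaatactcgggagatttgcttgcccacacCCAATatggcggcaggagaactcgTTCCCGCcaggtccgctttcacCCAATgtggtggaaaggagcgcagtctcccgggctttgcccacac
Ccnb2, chr9:70421555-70421674, minus strand: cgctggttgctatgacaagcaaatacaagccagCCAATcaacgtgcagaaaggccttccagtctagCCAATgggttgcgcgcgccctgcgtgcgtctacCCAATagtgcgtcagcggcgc
Top2a, chr11:99024190-99024309, minus strand: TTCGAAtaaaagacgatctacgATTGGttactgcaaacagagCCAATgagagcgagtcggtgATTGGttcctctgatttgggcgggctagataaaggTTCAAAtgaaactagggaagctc
Mki67, chr7:135716380-135716499, minus strand: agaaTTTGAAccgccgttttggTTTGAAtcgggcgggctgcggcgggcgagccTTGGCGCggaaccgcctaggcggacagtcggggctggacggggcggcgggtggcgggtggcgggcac
Kif11, chr19:37376262-37376381, plus strand: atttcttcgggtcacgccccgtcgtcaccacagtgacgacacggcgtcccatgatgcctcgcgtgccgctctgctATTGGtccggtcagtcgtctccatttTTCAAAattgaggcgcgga
The S-phase genes shown are helicase subunits and a subunit of ribonucleotide reductase: Mcm6 has 4 E2F core matches and 2 CCAAT boxes, Rrm1 has 1 and 2, and Mcm5 has 2 CCAAT boxes. The 4 matches of Mcm6 overlap in pairs, each a TTGGCGC that shares letters with a TTCGCGC of the other strand. Among the mitotic genes, Top2a has 2 CHR and 3 CCAAT matches, Kif11 has 1 of each, Mki67 has 2 CHR and 1 E2F core, and cyclin gene Ccnb2 has 3 CCAAT boxes. A match is a run of letters and not a measured binding site.

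**Figure D1:**
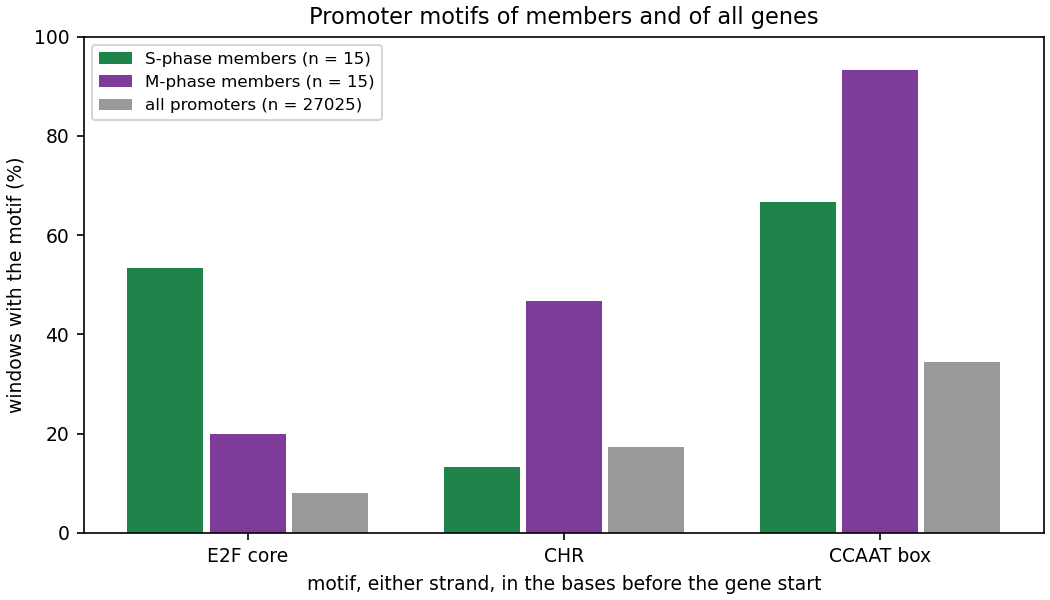
Share of promoter windows (%, vertical axis) that hold an E2F core, a CHR or a CCAAT box on either strand, for 15 S-phase genes, 15 M-phase genes and all 27025 windows (bars). The E2F core bar is higher for S-phase genes (53.3%) than for M-phase genes (20%), and the CHR bar is higher for M-phase genes (46.7% against 13.3%).

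Ptbp1, the targeted gene, was at 338 and 423 CPM in the WT pair, 388 and 424 in the KO pair and 174 and 186 in the Rescue pair. Its RNA was not lower in the pair named KO than in that named WT, with a log2 fold change of 0.10 by edgeR (adjusted p = 0.407). It was lowest in the Rescue pair, so its RNA level does not bear out the name KO. Protein was not measured here, and an RNA level alone cannot show whether the protein was lost. By the labels it was lower in KO than in WT with TNF but not without. Ptbp2 and Ccl2 followed the file names. Ptbp2, the paralogue that Ptbp1 keeps low through splicing, was at 38.2 and 37.9 CPM in the WT pair, 219 and 192 in the KO pair and 67.7 and 76.6 in the Rescue pair. Ccl2, a chemokine induced by TNF, was at 46.3 and 2038 CPM in the WT pair, 33.1 and 380.5 in the KO pair and 50.4 and 1639 in the Rescue pair, high in the 3 libraries named TNF. The endothelial label was not borne out by marker RNA: 10 to 12 of 14 endothelial markers were under 1 TPM in each library, Pecam1, Cdh5, Kdr, Tie1 and Vwf among them, Cldn5 was at 0 in all 6, and the list summed to 6.94 to 39.6 TPM. Above 1 TPM in all 6 were Flt1, at 3.08 to 12.5 TPM, and Egfl7, at 1.97 to 12.8 TPM. Ecscr reached 18.7 TPM in the library named WT_TNF and was at 0 to 1.5 TPM elsewhere. Smooth muscle and fibroblast markers summed to 11894 and 6079 TPM in the WT pair, 10939 and 7094 in the KO pair and 11075 and 4951 in the Rescue pair, lower in each TNF library. Most of that sum came from Col1a1 and Col1a2, while Myh11 was at 0.04 to 0.3 TPM. Not every marker of that list was lower with TNF. Dcn was higher, at 3.15 and 75.4 TPM in WT, 0.46 and 4.29 in KO and 3.09 and 42.8 in Rescue. Blood markers summed to 30.2 to 61.0 TPM with Ptprc at 0, and epithelial markers to 45.5 and 16.8 TPM in WT, 31.4 and 30.6 in KO and 2.12 and 0.96 in Rescue. Most of the blood sum came from Cd68, Cd14 and Lyz2. Most of the epithelial sum came from Krt19 alone, at 44.8 and 16.7 TPM in WT, 30.9 and 29.5 in KO and 1.89 and 0.96 in Rescue. The part of these cell type markers in the results below was not tested.

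Ptbp2 RNA followed the file names, while the level of Ptbp1 RNA does not bear out the name KO. Every gene of the list was higher in both libraries named KO than in both named WT. By edgeR's quasi-likelihood test with Benjamini-Hochberg adjustment 36 of 36 rose, against 16.8% of all genes called up and 16.2% called down. The groups did not overlap for 36 of 36, against 27.1% of all genes. The median log2 fold change was 1.15 over the S-phase genes (0.51 to 2.07) and 1.36 over the M-phase genes (0.48 to 2.02), against -0.0013 over all genes. Rescue against KO gave different counts in the classes. Of the 18 M-phase genes 11 fell and 0 rose, with a median of -0.56, while 2 of the 18 S-phase genes fell and 1 rose, with a median of -0.14, against 10.6% of all genes called down, 9.79% called up and a median of 0.0063. Against WT 33 of 36 genes rose in Rescue and 1 fell, against 12.5% of all genes called up and 12.1% called down, with medians of 0.95 (S phase) and 0.79 (M phase) against 0.0026. These 3 comparisons share libraries, so their values are given side by side and not as independent results.

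The model leaves 2 residual degrees of freedom, and its p-values set a difference against how unequal it was between untreated and TNF libraries, not against a spread between cultures. Differences between lines below are log2 fold changes from this test, and the value after ± is its SE. Each line is 1 population and KO is 1 clone, so loss of Ptbp1 and other differences of the clone cannot be told apart. In bulk RNA more dividing cells and more RNA per dividing cell cannot be told apart. Counts of 7 genes (Mcm7, Rfc4, Ccne2, Ccna2, Cdc20, Plk1 and Kif20a) are uncertain because they share exon bases with a gene of the opposite strand in GENCODE vM21 and the strand of the libraries is not given in the sources used here. Those of Pcna, Tyms, Ccnb1 and Ccnb2 are uncertain because each has a named pseudogene there that could take or give reads.

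**Figure D2:**
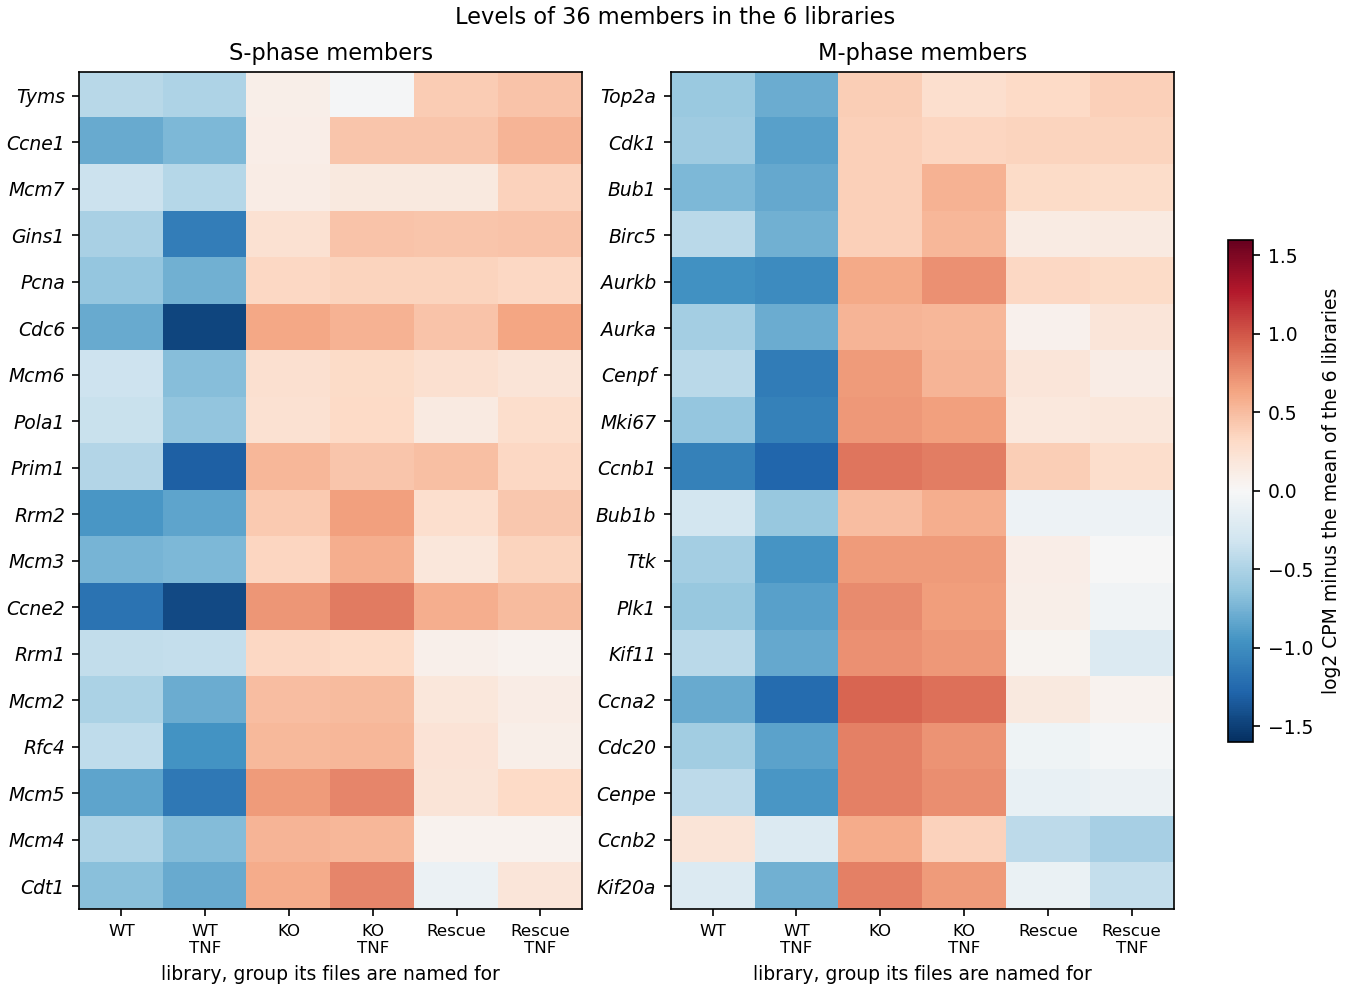
Heat map of log2 CPM minus each gene's mean over the 6 libraries (color) for 18 S-phase genes (left) and 18 M-phase genes (right), with libraries in columns by the group their files are named for. All 36 genes are lower in both WT columns than in both KO columns, and 16 of the M-phase genes against 8 of the S-phase genes are lower in both Rescue columns than in both KO columns.

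Among the licensing factors and the helicase, all 8 genes rose in KO, against 16.8% of all genes. In Rescue against KO 2 of the 8 fell, against 10.6% of all genes. Cdc6, which loads the helicase on origins, was at 8.85 and 5.58 CPM in the WT pair, 23.6 and 22.7 in the KO pair and 21.3 and 23.98 in the Rescue pair. KO and Rescue overlapped and both stood clear of WT, with 1.70 ± 0.22 (adjusted p = 0.00746) for KO against WT and -0.029 for Rescue against KO (adjusted p = 0.93). Cdt1, its partner, which geminin and proteolysis keep in check after origins fire, was at 38.8 and 35.1 CPM in the WT pair, 92.4 and 106 in the KO pair and 57.6 and 70.5 in the Rescue pair. It lay between in Rescue, above both WT and below both KO libraries, rising by 1.42 ± 0.12 (adjusted p = 0.00347) in KO and changing by -0.63 ± 0.12 (adjusted p = 0.0294) in Rescue against KO. Mcm5, a subunit of the ring that unwinds DNA, was at 66.3 and 53.8 CPM in the WT pair, 191 and 205 in the KO pair and 137 and 148 in the Rescue pair. It rose by 1.72 ± 0.13, the largest rise of the helicase genes, and its -0.47 in Rescue against KO did not pass (adjusted p = 0.0536). Mcm4 was at 161 and 140.3 CPM in the WT pair, 329 and 327 in the KO pair and 235 and 235 in the Rescue pair. Its level in Rescue was again intermediate, and its fall against KO passed at -0.48 ± 0.083 (adjusted p = 0.0246).

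The other helicase subunits rose in KO by 1.19 ± 0.081 (Mcm3), 1.15 ± 0.10 (Mcm2), 0.78 ± 0.11 (Mcm6) and 0.53 ± 0.10 (Mcm7). Mcm2 was at 150.3 and 124 CPM in the WT pair, 301 and 303 in the KO pair and 242 and 232 in the Rescue pair, so Rescue stood below KO in both libraries, but -0.35 missed the threshold (adjusted p = 0.0577). Mcm3 was at 83.0 and 84.8 CPM in the WT pair, 177 and 208 in the KO pair and 158 and 179 in the Rescue pair. Mcm6 was at 176 and 139 CPM in the WT pair, 265 and 273 in the KO pair and 264 and 256 in the Rescue pair. For Mcm7 the levels were 139.7 and 130.0 CPM in the WT pair, 192 and 198 in the KO pair and 198 and 230.1 in the Rescue pair. These 3 subunits were above both WT libraries in all 4 others and differed between Rescue and KO by -0.19, -0.054 and 0.13, all not called.

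All 8 genes of the copying machinery and of nucleotide supply rose in KO, against 16.8% of all genes. In Rescue against KO 0 of the 8 fell and 1, Tyms, rose, against 10.6% of all genes called down and 9.79% up. Pcna, the sliding clamp, was at 123 and 110.5 CPM in the WT pair, 238 and 241 in the KO pair and 242 and 238 in the Rescue pair. KO and Rescue overlapped and both were well above WT, at 1.04 ± 0.077 for KO and 1.04 ± 0.077 for Rescue against WT. Prim1, the primase subunit that lays the RNA primer, was at 36.6 and 20.4 CPM in the WT pair, 73.2 and 68.7 in the KO pair and 70.3 and 63.5 in the Rescue pair. It rose by 1.36 ± 0.20 (adjusted p = 0.0103), and Rescue again overlapped KO. Pola1, the polymerase that extends the primer, rose by 0.77 ± 0.12, the clamp loader subunit Rfc4 by 1.20 ± 0.16 and the GINS subunit Gins1 by 1.15 ± 0.22, and their differences between Rescue and KO of -0.074, -0.37 and 0.10 did not pass. Pola1 was at 52.9 and 43.5 CPM in the WT pair, 80.2 and 84.3 in the KO pair and 74.4 and 81.9 in the Rescue pair, and KO and Rescue overlapped. Rfc4 was at 14.6 and 10.0 CPM in the WT pair, 27.9 and 28.2 in the KO pair and 22.6 and 20.8 in the Rescue pair, with both Rescue libraries below both KO libraries. Gins1 was at 6.3 and 4.18 CPM in the WT pair, 10.7 and 12.4 in the KO pair and 12.3 and 12.4 in the Rescue pair, again with overlap of KO and Rescue. This gene had the fewest reads of the list, with 87.0 counts in the library named WT_TNF (4.18 CPM, 95% Poisson interval 3.35 to 5.16, counting error only).

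Ribonucleotide reductase makes the deoxynucleotides. Rrm2, its S-phase subunit, was at 40.0 and 42.5 CPM in the WT pair, 102 and 120.5 in the KO pair and 92.0 and 103 in the Rescue pair. It rose by 1.43 ± 0.075 (adjusted p = 0.00154), and KO and Rescue overlapped. Rrm1, the large subunit, was at 177 and 178 CPM in the WT pair, 293 and 291 in the KO pair and 246 and 243 in the Rescue pair, rose by 0.72 ± 0.067 and was -0.26 in Rescue against KO (adjusted p = 0.0525). Tyms, thymidylate synthase, was at 38.7 and 37.4 CPM in the WT pair, 56.5 and 52.1 in the KO pair and 69.8 and 72.6 in the Rescue pair. It had the smallest rise of the S-phase genes in KO, 0.51 ± 0.08 (adjusted p = 0.0114), and is the gene of the list that rose in Rescue against KO, by 0.39 ± 0.079 (adjusted p = 0.0326), with both Rescue libraries above both KO libraries. That call was lost in the second quantification (0.26, adjusted p = 0.0936).

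The 2 E cyclins activate Cdk2 at the entry into S phase. Ccne2 was at 7.12 and 5.96 CPM in the WT pair, 26.3 and 28.7 in the KO pair and 24.2 and 23.0 in the Rescue pair. This was the largest rise of the list, 2.07 ± 0.13 (adjusted p = 0.00227), and Rescue stayed 1.85 ± 0.13 above WT. Ccne1 was at 8.7 and 9.23 CPM in the WT pair, 16.3 and 20.6 in the KO pair and 20.6 and 22.2 in the Rescue pair. It rose by 1.04 ± 0.12, and its 0.22 in Rescue against KO did not pass (adjusted p = 0.221). Both Rescue libraries were above both KO libraries, but the nearest values, 20.64 and 20.61 CPM, were almost equal.

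The 3 cyclins of the later cycle all rose in KO, against 16.8% of all genes. All 3 fell in Rescue against KO, against 10.6% of all genes. Ccna2, cyclin A, which serves both DNA synthesis and mitotic entry, was at 69.3 and 51.4 CPM in the WT pair, 232 and 223 in the KO pair and 135 and 126 in the Rescue pair. It rose by 1.93 ± 0.12 (adjusted p = 0.00209) in KO and fell by 0.80 ± 0.11 in Rescue against KO (adjusted p = 0.0166), ending between WT and KO. Ccnb1, cyclin B1, was at 37.0 and 32.6 CPM in the WT pair, 143 and 139 in the KO pair and 103 and 95.9 in the Rescue pair. It had the largest rise of the M-phase genes, 2.02 ± 0.076 (adjusted p = 0.000911), fell by 0.50 ± 0.073 in Rescue (adjusted p = 0.0175) and remained 1.51 ± 0.075 above WT. Ccnb2, cyclin B2, was at 39.0 and 29.0 CPM in the WT pair, 50.9 and 43.4 in the KO pair and 25.2 and 23.3 in the Rescue pair. Its rise was the smallest of the list, 0.48 ± 0.10 (adjusted p = 0.0245), and it fell by 0.95 ± 0.10 in Rescue against KO (adjusted p = 0.0106) to below WT, at -0.47 ± 0.10 (adjusted p = 0.0329) against WT. That last call was lost with limma on log2(TPM + 1) and without the library labelled WT or that labelled KO. Cdk1, the kinase that both cyclins activate, was at 69.3 and 56.4 CPM in the WT pair, 134 and 131 in the KO pair and 132 and 132 in the Rescue pair. Its KO and Rescue libraries overlapped, at 1.08 ± 0.10 for KO and 1.07 ± 0.10 for Rescue against WT.

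Mitotic kinases rose in KO by 1.66 ± 0.086 (Aurkb, of the chromosomal passenger complex), 1.46 ± 0.079 (Plk1, which drives mitotic entry and spindle assembly) and 1.20 ± 0.11 (Aurka, of the centrosome and spindle poles). Plk1 was at 36.6 and 30.7 CPM in the WT pair, 94.8 and 89.2 in the KO pair and 59.8 and 54.0 in the Rescue pair. It fell by 0.70 ± 0.077 in Rescue against KO (adjusted p = 0.0111), and the 3 pairs of libraries did not overlap. Aurkb was at 17.2 and 16.7 CPM in the WT pair, 51.3 and 55.8 in the KO pair and 42.4 and 41.8 in the Rescue pair. Its fall in Rescue, -0.35 ± 0.082 (adjusted p = 0.0443), had the highest adjusted p of the 13 falls and was lost by DESeq2, and the difference of Aurka, -0.40, did not pass (adjusted p = 0.0601). Aurka was at 23.9 and 20.2 CPM in the WT pair, 50.9 and 50.6 in the KO pair and 36.7 and 40.1 in the Rescue pair, with its Rescue libraries between the other pairs.

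The genes of the spindle checkpoint, its target Cdc20 and survivin, 5 in all, rose in KO, against 16.8% of all genes. Cdc20, which the checkpoint restrains, was at 63.0 and 51.2 CPM in the WT pair, 162 and 153 in the KO pair and 88.3 and 90.5 in the Rescue pair. It rose by 1.47 ± 0.10 (adjusted p = 0.00255) and fell by 0.81 ± 0.10 in Rescue (adjusted p = 0.0131), to a level still 0.65 ± 0.10 above WT. Bub1b, the checkpoint protein BubR1, was at 55.2 and 44.8 CPM in the WT pair, 95.4 and 101 in the KO pair and 64.2 and 63.9 in the Rescue pair. It rose by 0.98 ± 0.11, fell by 0.62 ± 0.11 in Rescue and at 0.36 was not called against WT (adjusted p = 0.0743). The checkpoint kinase Ttk rose by 1.42 ± 0.13 and fell by 0.63 ± 0.13, from 30.7 and 30.7 CPM in the KO pair to 20.6 and 19.0 in the Rescue pair, with 13.1 and 9.96 in the WT pair. Bub1, a kinase of the same checkpoint, was at 22.3 and 21.0 CPM in the WT pair, 48.0 and 54.5 in the KO pair and 45.5 and 45.1 in the Rescue pair. It rose by 1.24 ± 0.10 and its -0.18 in Rescue did not pass (adjusted p = 0.229). Birc5, or survivin, of the passenger complex that corrects attachments, rose by 1.05 ± 0.13 and was -0.32 in Rescue against KO (adjusted p = 0.136). Its levels were 42.4 and 33.8 CPM in the WT pair, 74.6 and 83.1 in the KO pair and 62.9 and 63.6 in the Rescue pair, and the 3 pairs did not overlap.

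The motors Kif20a, Cenpe and Kif11 had 3 of the 6 largest falls of the list in Rescue against KO. Kif20a, a kinesin of the central spindle and cytokinesis, was at 100 and 67.8 CPM in the WT pair, 202 and 185 in the KO pair and 107 and 89.1 in the Rescue pair. Its Rescue pair overlapped its WT pair. Kif20a rose by 1.23 ± 0.12 (adjusted p = 0.00439), fell by 0.99 ± 0.12 (adjusted p = 0.0128) and at 0.24 was not called between Rescue and WT (adjusted p = 0.196). Cenpe, a kinetochore motor that moves chromosomes to the spindle equator, was at 109 and 76.8 CPM in the WT pair, 256 and 246 in the KO pair and 135 and 137 in the Rescue pair. It rose by 1.45 ± 0.14 and fell by 0.88 ± 0.14 in Rescue (adjusted p = 0.0214). Kif11, the motor that pushes spindle poles apart, was at 62.5 and 48.0 CPM in the WT pair, 140.5 and 137 in the KO pair and 86.9 and 72.8 in the Rescue pair. It rose by 1.34 ± 0.10 and fell by 0.80 ± 0.10 in Rescue (adjusted p = 0.0139). Cenpf, a kinetochore protein, rose by 1.38 ± 0.16, and its -0.46 did not pass (adjusted p = 0.102). It was at 66.3 and 41.3 CPM in the WT pair, 144 and 131 in the KO pair and 102 and 97.2 in the Rescue pair, with Rescue below KO and above WT in both libraries.

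Top2a and Mki67 are both used as markers of dividing cells, and both rose in KO. Top2a, the topoisomerase that untangles sister chromosomes, was at 196 and 169 CPM in the WT pair, 388 and 355 in the KO pair and 367 and 384 in the Rescue pair. KO and Rescue overlapped, with 1.03 ± 0.092 (adjusted p = 0.00362) for KO against WT and 0.019 for Rescue against KO (adjusted p = 0.895). Mki67, the Ki-67 antigen that coats mitotic chromosomes, was at 204 and 147 CPM in the WT pair, 507 and 491 in the KO pair and 350.5 and 354 in the Rescue pair. It rose by 1.52 ± 0.14 (adjusted p = 0.00369), and in Rescue it was lower than in KO in both libraries, but -0.50 missed the threshold (adjusted p = 0.0578). Whether these genes differ in their change was not tested.

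**Figure D3:**
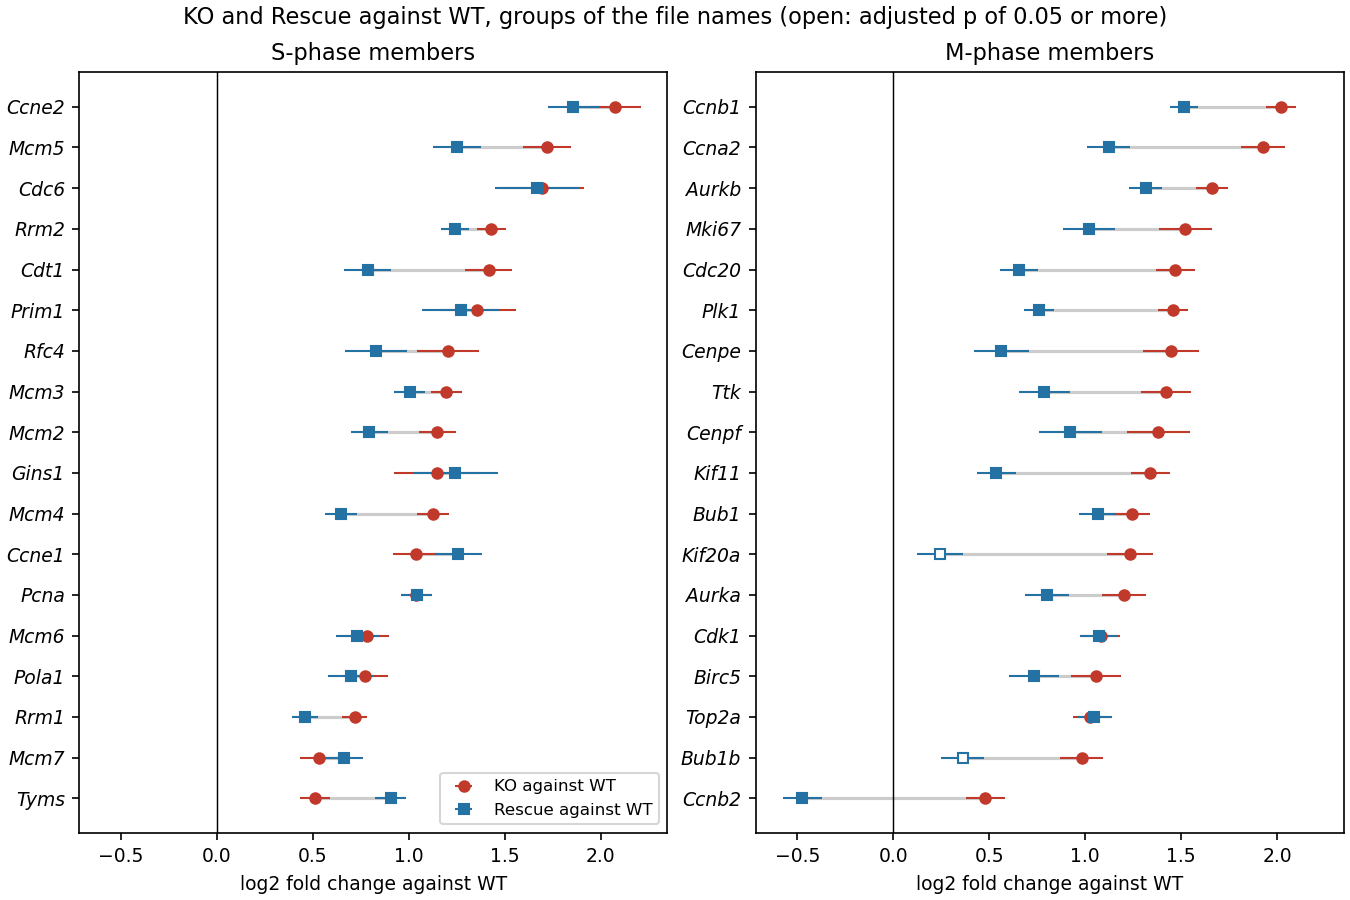
Log2 fold change against WT (horizontal axis) of the 18 S-phase genes (left) and 18 M-phase genes (right), for KO (circles) and Rescue (squares), with bars of 1 SE and open symbols where edgeR's adjusted p was 0.05 or more. For Pcna, Cdk1 and Top2a the symbols coincide near 1.0, while for Kif20a Rescue is at 0.24 against 1.23 in KO and for Ccnb2 it is at -0.47 against 0.48.

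The median change was larger in size over the M-phase genes than over the S-phase genes in KO against WT and in Rescue against KO. The S-phase median minus the M-phase median was -0.21 for KO against WT, 0.42 for Rescue against KO and 0.16 for Rescue against WT. In Rescue against KO 17 of 18 S-phase genes were above the M-phase median. KO stood above Rescue without overlap for 16 M-phase and 8 S-phase genes, against 26.3% of all genes, and Rescue stood above KO for Tyms and Ccne1, against 26.1%. Among these the nearest Rescue and KO values were almost equal for Mcm6 (263.7 and 264.8 CPM) and Ccne1 (20.64 and 20.61 CPM). Rescue stood above WT without overlap for 18 S-phase and 16 M-phase genes, against 25.9%, and Ccnb2 alone stood below it, against 23.1%. Summed over the class, deposited TPM of the S-phase genes was 1056 and 847 in the WT pair, 1958 and 1923 in the KO pair and 1888 and 1834 in the Rescue pair. For the M-phase genes the sums were 717 and 524 in WT, 1586 and 1463 in KO and 1173 and 1089 in Rescue. The S-phase sum was thus 1.47 and 1.61 times the M-phase sum in WT, 1.23 and 1.31 times in KO and 1.61 and 1.68 times in Rescue. Genes of a class share their libraries and are not replicates, so no test was made over them. Per transcript length Pcna was the most abundant S-phase gene in all 6 libraries (183 to 458 TPM) and Cdc6 the least abundant (2.22 to 10.35 TPM). Among the M-phase genes Ttk was the least abundant in all 6, at 6.37 to 21.1 TPM, and Cdc20 was at 56.3 to 191 TPM.

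With the labels' groups none of this was called. By edgeR 0 of 36 genes passed in KO against WT, Rescue against KO or Rescue against WT, where 0% of all genes passed and 29, 27 and 91 of all genes had an unadjusted p under 0.05, none of them of the list. Median log2 fold changes of the 36 genes were -0.33, 0.75 and 0.42, and 34 of 36 were negative in KO against WT. Directions above in KO against WT and in Rescue against KO therefore rest on the file names. In Rescue against WT 35 of 36 genes were positive with either grouping, but the calls there rest on the file names too. Without either library of the Rescue pair, labelled KO_TNF and Rescue_TNF, 28 of 36 calls were left in KO against WT, where 3.89% and 3.73% of all genes were called up. In both comparisons of Rescue 0 were left, where 0% of all genes passed by edgeR and 1 library stood for the line. At an unadjusted p under 0.05 were 13 and 15 of 36 in Rescue against KO and 33 and 33 in Rescue against WT. Without the library labelled KO 32 calls were left in KO against WT (Mcm7, Tyms, Gins1 and Ccnb2 lost), against 7.18% of all genes called up, and 23 in Rescue against WT, all upward, against 3.65%.

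No gene of the list was called for TNF. Over the 3 genotypes 0 of 36 genes passed by edgeR (4 at an unadjusted p under 0.05, where 40.7% of all genes were, and 0 of 36 by DESeq2), against 11.2% of all genes called up and 10.8% called down, and medians were -0.043 for S-phase and -0.14 for M-phase genes against -0.012 for all. Kif20a, at -0.32 ± 0.10 (adjusted p = 0.0756), and Ccnb2, at -0.26 ± 0.084 (adjusted p = 0.0842), had the lowest p. Without the untreated library of the KO pair (labelled Rescue) 2 of 36 fell, against 13% of all genes, and without its TNF library (labelled WT_TNF) 3 of 36 fell, against 13.7%. In ratios of 1 library to 1, which carry no test, 32 of 36 genes were lower with TNF in the WT pair, with a median of -0.29, while medians were -0.0035 in the KO pair and -0.0031 in the Rescue pair. In the WT pair all 18 M-phase genes were lower, from -0.68 to -0.042, and the S-phase genes ranged from -0.84 (Prim1) to 0.087 (Rrm2). With these groups no gene of the list reached a 2-fold ratio with TNF in any pair, where 5.74% of all genes did upward and 6.13% downward in WT, 2.73% and 3.91% in KO and 4.42% and 4.45% in Rescue. KO over WT was a median of 1.06 without TNF, with 21 of 36 genes at 2-fold or more (5.08% of all genes), and 1.47 with TNF, with 30 of 36 (6.34%). None of the 36 was 2-fold or more below WT, where 8.56% and 10.1% of all genes were. Rescue over KO was a median of -0.29 without TNF and -0.39 with it. Ccnb2 without TNF and Kif20a with it were 2-fold or more below KO, 1 gene of 36 in each treatment against 5.19% of all genes in each, and 0 of 36 were 2-fold or more above it, against 5.41% and 6.81%. Rescue over WT was a median of 0.70 without TNF, with 8 of 36 genes at 2-fold or more (3.78% of all genes), and 1.03 with TNF, with 19 of 36 (4.87%), and 0 of 36 were 2-fold or more lower (7.13% and 7.86%).

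The same ratios took other values with the labels' groups. TNF over none was then a median of 1.05 in WT, with 20 of 36 genes at 2-fold or more up (7.03% of all genes) and 0 down (12%). In KO it was a median of 1.00, with 18 of 36 up (7.95%) and 0 down (9.63%). In Rescue it was a median of -0.32, with 0 up (7.91%) and 2 of 36 down (8.12%). KO over WT was a median of -0.29 without TNF and -0.39 with it, Rescue over KO 1.33 and -0.0031, and Rescue over WT 1.06 and -0.39. The direction of the list with TNF therefore differs between the groupings too.

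A KO by TNF term, fitted with 1 residual degree of freedom, was called for 0 of 36 genes by edgeR, with 0 at an unadjusted p under 0.05, where 10.4% of all genes were (0.369% of all genes called up and 0.99% down). With the labels' groups it was also called for 0 of 36 and 0% of all genes, with 0 of 36 and 6.49% of all genes at an unadjusted p under 0.05 and a median of 0.65. A WT by TNF term, added after the data were seen, was negative for 35 of 36 genes with a median of -0.28 against -0.014 for all genes. It was called for 0 of 36 and for 0% of all genes, the smallest adjusted p of the list being 0.683, with 13 of 36 against 7.11% of all genes at an unadjusted p under 0.05. Prim1 (-0.72), Cenpf (-0.58) and Cenpe (-0.48) had the lowest of these p-values. With the labels' groups TNF was called for 0 of 36 genes (3 at an unadjusted p under 0.05, against 491 of all genes, 3.86%), with a median of 0.58.

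**Figure D4:**
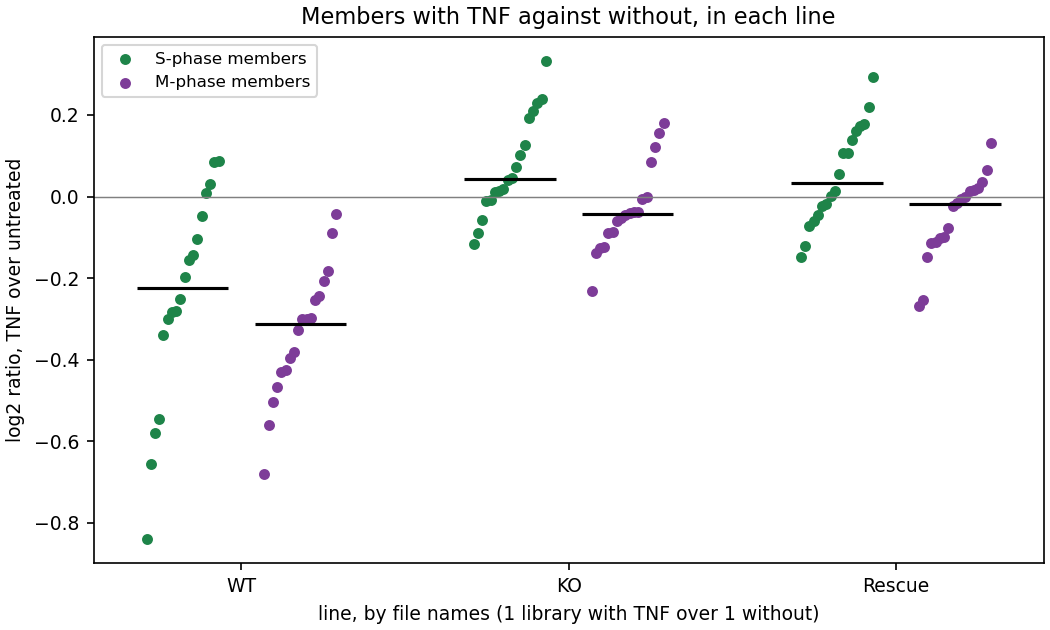
Log2 ratio of the library with TNF to that without (vertical axis) in each line by file names (horizontal axis), with 1 point per gene and a bar at the class median. In WT 32 of 36 points are below 0, while in KO and Rescue the points lie on both sides of 0.

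Most genes of wider lists of the same processes rose in KO too. Of 46 other replication genes 39 rose and 1 fell in KO against WT (median 0.88), against 16.8% of all genes called up and 16.2% down, led by the histone chaperone Asf1b (1.91 ± 0.15), while the origin recognition subunit Orc5 fell by 0.36 ± 0.10 (adjusted p = 0.0466). In Rescue against KO 3 of the 46 rose and 9 fell (median -0.16), against 9.79% of all genes called up and 10.6% down. Of 53 other mitosis genes tested 50 rose and 1 fell in KO (median 1.30), led by the cytokinesis factor Ect2 (1.76 ± 0.068) and the cohesion protector Sgol1 (1.61 ± 0.15), while the kinetochore gene Zwint fell by 0.33 ± 0.081 (adjusted p = 0.0345). Ect2 was at 43.5 and 38.4 CPM in the WT pair, 147 and 131 in the KO pair and 80.6 and 72.9 in the Rescue pair. In Rescue against KO 1 of the 53 rose and 24 fell (median -0.42), Ect2 by 0.85 ± 0.066, and against WT 47 rose and 0 fell, against 12.5% of all genes called up and 12.1% down. These lists were drawn up with results of the same libraries known and are not independent evidence. With the labels' groups 0 genes of either list passed by edgeR in these comparisons.

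Of 40 regulators of the cycle 24 rose and 1 fell in KO against WT (median 0.46), against 16.8% of all genes called up and 16.2% down. With the labels' groups 0 of 40 passed by edgeR, 0 at an unadjusted p under 0.05, with a median of -0.051. Among the E2F factors the repressors E2f8 (2.18 ± 0.14) and E2f7 (1.16 ± 0.18) rose. The activators E2f2 (1.42 ± 0.36), E2f1 (0.70 ± 0.14) and E2f3 (0.54 ± 0.081) rose, as did E2f4 (0.36 ± 0.071). E2f5 (0.28) and E2f6 (-0.0089) were not called. E2f2 had few reads, at 1.22 and 1.20 CPM in WT, 2.17 and 4.61 in KO and 2.09 and 2.58 in Rescue. E2f8 was at 5.85 and 4.67 CPM in the WT pair, 23.7 and 23.7 in the KO pair and 19.3 and 19.8 in the Rescue pair, with -0.28 in Rescue against KO, which was not called. Mybl2, which encodes B-Myb, rose by 1.79 ± 0.17 in KO and by 2.20 ± 0.17 in Rescue against WT. Cdkn2b, the Cdk4 and Cdk6 inhibitor p15, was the regulator that fell in KO. It was at 106 and 109.6 CPM in the WT pair, 34.3 and 24.4 in the KO pair and 61.9 and 46.6 in the Rescue pair, a change of -1.90 ± 0.15 (adjusted p = 0.00316), and it rose by 0.89 ± 0.15 (adjusted p = 0.0234) in Rescue against KO while staying below WT. Other inhibitors rose (Cdkn1b 0.36, Cdkn2c 0.57, Cdkn2d 0.89) or were not called (Cdkn1a -0.14, Cdkn1c -0.32, Cdkn2a -0.41). Of these Cdkn1c had few reads, at 0 to 2.95 CPM. Cdkn1a, p21, was at 529 and 666 CPM in the WT pair, 548 and 529.9 in the KO pair and 649.6 and 698 in the Rescue pair, and Cdkn2a, the locus of p16 and Arf, at 322 and 422 CPM in the WT pair, 303 and 256 in the KO pair and 254 and 244 in the Rescue pair.

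No splicing node of the list met the rule for a change among cassette exons, alternative acceptors and donors and retained introns. Alternative first and last exons and transcript starts and ends were not counted. Of 480 splicing nodes in the 36 genes 0 differed by 0.2 or more in percent spliced in (psi, a fraction) between KO and WT in both treatments, against 0.26% of 93140 nodes. The same count was 0 of 493 for Rescue against KO (0.237% of all nodes) and 0 of 480 for Rescue against WT (0.0661%). With shares of all nodes this low, counts of 0 do not set the list apart from other genes. Cassette exons of Cenpf and Cenpe had the largest shifts seen in both treatments. That of Cenpf is a 134-nt exon at chr1:189684533-189684666 (GRCm38), with psi of 0 and 0 in the WT pair, 0.0705 and 0.16 in the KO pair and 0.119 and 0.0652 in the Rescue pair. It rested on 21.0 to 83.0 reads per library, a depth that limits how well a low psi is known. That of Cenpe is a 156-nt exon at chr3:135242477-135242632, with psi of 1.0 and 1.0 in the WT pair, 0.93 and 0.926 in the KO pair and 1.0 and 1.0 in the Rescue pair. It rested on 124 to 389 reads per library, and the KO pair was below the other 4 libraries. With the labels' groups 0 nodes of the list met the rule in KO against WT (0.0355% of all nodes), Rescue against KO (0.0395%) or Rescue against WT (0.0291%).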

How the data were processed

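RNA of 6 libraries of a mouse aortic cell line was sequenced, 1 library in each of 6 groups. Deposited values per gene were expected counts and TPM from RSEM, a tool listed in the submitters' processing notes. The untreated library with KO file names had them per transcript, and its transcripts were added up by gene. RSEM's version, the aligner and the genome build are not given in the sources used here. The authors also deposited a second set of estimated counts per gene and, per the file headers, psi as a fraction from 0 to 1 with the reads behind it per splicing node. A row without a gene name, 0.0735 to 0.0927% of counts, was left out. The members and gene lists were chosen with earlier results of these data known.

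Expected counts were rounded and tested with edgeR 4.0.16 (R 4.3.3, quasi-likelihood, TMM factors, filterByExpr) with genotype and TNF as additive terms and all 6 libraries in the fit, and with Benjamini-Hochberg adjustment over 12728 genes and a threshold of 0.05. SE is the size of the log2 fold change over the root of F and so restates the test. Single-library ratios had a prior count of 2. Splicing nodes were cassette exons, alternative acceptors, alternative donors and retained introns, and needed 20 reads in each library compared. Fold changes are on the log2 scale. Promoters came from RefSeq and exons from GENCODE vM21. The test of KO against WT was checked on simulated data. It recovered 75.8% of 99 genes set to change by 1 and 99% of 100 set to change by 2. There were 12 false calls among 12556 genes in that test, and the median error was 0.13. Alternatives were DESeq2 1.42.0, RLE factors, no filter on low counts, the second quantification, limma 3.58.1 on log2(TPM + 1), the labels' groups and leaving out each library. All 36 members may be named, as may the 2 largest rises and falls past the threshold of each other list, every Cdkn and E2f gene, and Ptbp1, Ptbp2 and Ccl2. Mybl2 is among the 2 largest rises of the regulators. A gene of the other replication genes that this rule names is not reported here. Deposited junction counts and the second set of transcript values were left out. With 1 library per group, p-values do not measure a spread between cultures.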

Additional observations from a re-analysis of the deposited data

How the results depend on the processing

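With the groups of the labels in place of those of the file names, 0 members passed in KO against WT, 0 in Rescue against KO and 0 in Rescue against WT, and the S-phase minus M-phase difference of medians was 0.25, -0.15 and 0.026 in these comparisons, the first 2 of opposite sign to the values by file names. The cause was not tested beyond the different grouping. Leaving out each library in turn gave 28 to 36 members past the threshold in KO against WT, 0 to 18 in Rescue against KO, 0 to 35 in Rescue against WT and 0 to 3 for TNF. The counts of 0 for Rescue came without either library of the Rescue pair (labelled KO_TNF and Rescue_TNF), where the lone library named Rescue is assumed to vary like the other groups, and the 2 and 3 calls for TNF came without the library labelled Rescue or that labelled WT_TNF. The S-phase minus M-phase difference kept its sign without each library, from -0.24 to -0.19 in KO against WT, 0.41 to 0.45 in Rescue against KO and 0.12 to 0.26 in Rescue against WT. With Ccna2 counted as an S-phase gene it was -0.19, 0.32 and 0.22, in place of -0.21, 0.42 and 0.16. In the second quantification the median ratio of KO_TNF over WT_TNF was 1.34 in place of 1.47, and that of KO_TNF over KO was 0.00479 in place of -0.00347, the last 2 values both near 0. Of 84 calls of single members by file names, 1 was lost with DESeq2 (Aurkb in Rescue against KO), 0 with RLE factors, 1 without the filter (Aurkb), 1 in the second quantification (Tyms) and 5 with limma on log2(TPM + 1) (Cdt1, Aurkb, Bub1b and Ttk in Rescue against KO and Ccnb2 in Rescue against WT), and 0 turned direction. No paired analysis was possible because each group has 1 library, so the groups share no pairs of replicates beyond the treatment already in the model.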
